A study of Mus musculus with 20 samples.

Results

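The change from day 1 to day 3 of reprogramming was followed in mouse embryonic fibroblasts that received an shRNA against Ddx10. The 2 libraries of day 3 were set against the 2 libraries of day 1 of the same arm. These are 4 of the 20 libraries of the study, and all 15757 genes of its expression table entered the comparison. The whole study holds a Ddx10 shRNA arm and a luciferase control shRNA arm, each with 2 libraries at days 0, 1, 3, 5 and 7.

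Both groups of the step carried the same treatment and differed in time only. They were OG2 fibroblasts at passage 2, infected 2 times with retroviral stocks, given OSKM (the factors Oct4, Sox2, Klf4 and Myc, of which Oct4 is encoded by Pou5f1) together with the Ddx10 shRNA, and then kept in iCD1, a reprogramming medium. The cells of days 1 and 3 that are used below as the other arm received OSKM and the control shRNA in place of the Ddx10 shRNA. The labels name neither the shRNA sequence nor a rescue of Ddx10, and reads from viral factor copies cannot be told apart from those of the cell's own genes. The age and sex of the embryos and the day of shRNA delivery are not given in the sources used here. Replicates are described as biological, yet the labels leave unsaid whether separate dishes were infected. A p-value here therefore reflects the spread between the deposited samples, which may be technical.

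DDX10 is a DEAD-box RNA helicase of the nucleolus with a role in building the small subunit of the ribosome. In the first days of factor-driven reprogramming, fibroblasts are known to lower genes of contraction and extracellular matrix and to turn on epithelial genes, a mesenchymal to epithelial transition that precedes the endogenous pluripotency network. Retroviral infection and cytosolic nucleic acids are known to induce interferon-stimulated genes, which STAT and IRF factors drive through a promoter element called the ISRE.

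The values were normalized read counts per gene, scaled by the submitters. The 4 libraries summed to 16.5 M to 17.2 M, and 296 and 337 genes were at 0 at day 1 against 166 and 154 at day 3. Replicates of day 1 differed by a median of 0.154 on the log2 scale and those of day 3 by 0.123. Fibroblast transcripts were high in all 4 libraries: Col1a2, a chain of type I collagen, read 80425 and 81209 at day 1 and 48275 and 50430 at day 3. Changes are given as log2 fold changes of the value plus 1, with the standard error (SE). A gene is called changed, and the words rose and fell are used, where the limma adjusted p over all genes was below 0.05. In bulk RNA, fewer cells of a type and less RNA per cell cannot be told apart.

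Ddx10 itself, the target of the shRNA, read 255 and 321 at day 1 and 306 and 355 at day 3. The days overlapped, and the change of 0.20 (SE 0.12, limma adjusted p = 0.204) was not called. It passed the threshold only without day 1 replicate 2, at 0.37 (limma adjusted p = 0.0489). In the control arm Ddx10 read 804 and 921 at day 1 and 803 and 841 at day 3, above all 4 knockdown libraries. The gene lies on the minus strand at chr9:53098635-53248053 in the GENCODE annotation of GRCm38.

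The reprogramming factors were abundant on both days. Pou5f1 read 14319 and 14184 at day 1 and 18473 and 17334 at day 3, a rise of 0.33 (SE 0.06, limma adjusted p = 0.000783). Myc fell from 1450 and 1505 to 1091 and 1117, a change of -0.42 (SE 0.09, limma adjusted p = 0.0028). Sox2 changed by 0.06 (limma adjusted p = 0.653) and Klf4 by 0.22 (limma adjusted p = 0.0656), and neither was called. Klf4 passed the threshold after quantile scaling, at 0.36 (limma adjusted p = 0.00385), in fits of the compared libraries only (0.0159) and of the knockdown arm only (0.0132), and with library weights (0.0256). The 4 factor genes thus stayed within 1.5-fold of their day 1 level in these normalized counts.

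Across all genes, 5095 were called, which is 32.3% of those tested. Of these, 2840 rose (18.0% of the genes tested) and 2255 fell (14.3%). After quantile scaling the balance turned, with 2336 genes higher and 2572 lower. The rises were also larger, with a median size of 0.85 among risen genes and 0.50 among fallen genes. Past 2 on the log2 scale went 528 rises against 90 falls. These sizes include genes near 0, and more genes were at 0 at day 1 than at day 3. The part of low genes and of scaling in these sizes was not tested. The median change of all genes was 0.03, with quartiles at -0.25 and 0.40. In 10741 genes, 68.2% of the table, the replicates of the days did not overlap. With 2 libraries a day, genes without a change can also fail to overlap, and fewer genes (32.3%) were called. Interferon-stimulated and epithelial genes lay furthest to the higher side, while smooth muscle, mitotic and cholesterol synthesis genes lay furthest to the lower side.

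**Figure D1:**
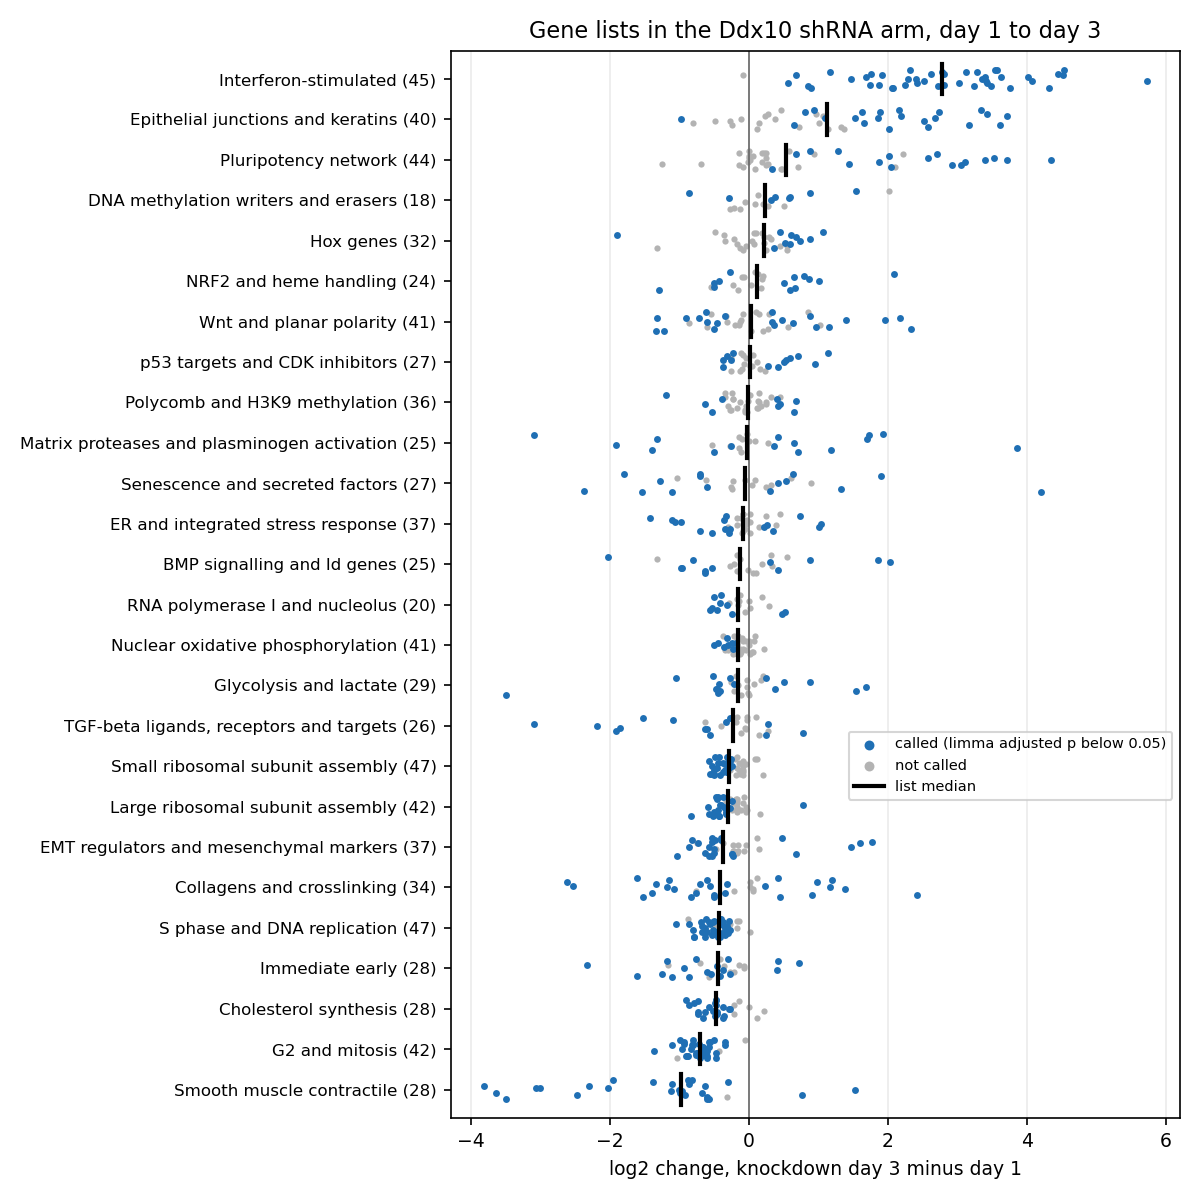
Log2 change from day 1 to day 3 in the Ddx10 shRNA arm for the genes of 26 lists, 1 point a gene, with the number of measured genes in brackets. Blue points were called by limma and grey points were not, and the black bar is the list median, which runs from 2.77 for interferon-stimulated genes to -0.98 for smooth muscle genes.

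Interferon-stimulated genes formed the list with the highest median. Of 45 measured, 44 rose and 0 fell, and the median change was 2.77 beside 0.03 for all genes. Oasl2, an interferon-induced member of the oligoadenylate synthetase family, read 114 and 312 at day 1 and 4392 and 4345 at day 3. Its rise of 4.53 (SE 0.33, limma adjusted p = 2.78e-07) was 3.80 without day 1 replicate 1 and 5.25 without day 1 replicate 2. Both day 3 libraries were far above both day 1 libraries, and the day 1 pair was the less even of the 2 pairs. Separation of the days was a condition for naming the largest rises, Oasl2 among them.

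Synthetases and GTPases of this response were among the largest rises. Oas3, which makes the second messenger that activates RNase L, went from 25.4 and 49.4 to 821 and 845, a rise of 4.51 (SE 0.27, limma adjusted p = 1e-08). Igtp, an immunity-related GTPase, went from 46.5 and 66.2 to 1296 and 1167, a rise of 4.45 (SE 0.25, limma adjusted p = 1.3e-08). Iigp1, of the same GTPase family, rose by 5.72 from 11.1 and 13.7 to 710 and 694. In each of these genes the lower day 3 library was more than 10 times the higher day 1 library, though separation of the days was again a condition of naming them. Tgtp1, Tgtp2 and Oas1g also rose, but each has near-identical neighbouring genes, so their split of reads is uncertain.

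The transcription factors of the pathway rose from higher starting levels. Stat2 read 666 and 819 at day 1 and 4542 and 4520 at day 3, a rise of 2.62 (SE 0.09, limma adjusted p = 2.32e-11). Irf7, which amplifies interferon production, rose by 3.28, from 127 and 281 to 1956 and 1732. Isg15, the ubiquitin-like modifier, rose by 3.54, from 89.4 and 222 to 1695 and 1606. For Stat2, Irf7 and Isg15, day 1 replicate 2 was above day 1 replicate 1, and the days did not overlap. Samhd1, a dNTP hydrolase, was the 1 listed gene not called, at -0.08. The list's summed level was 21865 and 28773 at day 1 and 103464 and 100744 at day 3. Its 44 calls were made without any 1 of the 4 libraries, with medians from 2.43 (without day 1 replicate 1) to 3.05 (without day 1 replicate 2).

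The promoters of Oas3 and Igtp are shown because these genes rose with the list and hold an ISRE-like match. Sequences are from RefSeq, build GRCm38.p6, written 5′ to 3′ on the gene's strand, and capitals mark the match, which is GAAA, any 2 bases and GAAA again, or TTTC, any 2 bases and TTTC on the other strand. Oas3 lies at chr5:120777690-120777769 on the minus strand with its match 75 bases before the gene start, and Igtp at chr11:58199487-58199566 on the plus strand with its match 34 bases before the start.
Oas3: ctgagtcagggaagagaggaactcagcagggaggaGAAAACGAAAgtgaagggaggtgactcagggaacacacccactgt
Igtp: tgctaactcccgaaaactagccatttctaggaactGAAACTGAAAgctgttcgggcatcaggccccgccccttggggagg
In windows from 250 bases before to 50 bases after the start, 39.0% of 41 promoters of the interferon list held this motif, against 2.98% of 14488 promoters of the table's genes and 3.44% of all 32851 promoters in the RefSeq set. Among genes that rose in the step the share was 4.91%, and among genes that fell it was 2.39%. A match is a stretch of letters and not a measured binding site.

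Macrophage markers were followed beside the interferon genes because macrophages can be present in fibroblast cultures. Of 16 measured markers, 5 rose, namely Mpeg1, Ptprc, Laptm5, Cd68 and Itgam, and 0 fell; without day 3 replicate 1, 3 rose, and Itgam (1.15) was then at a limma adjusted p of 0.0544. The share called was 31.2%, beside 32.3% of all genes, and 11 of the 16 markers had a mean below 50 over the 4 libraries. Mpeg1, a pore-forming protein of phagocytes, rose by 3.28, from 21.9 and 16.9 to 202 and 190. Cd68, a lysosomal glycoprotein, rose by 1.31, from 153 and 148 to 358 and 396. The summed level of the list was 755 and 646 at day 1 and 1679 and 1584 at day 3, below its 4919 and 4891 at day 0. Csf1r, the receptor that macrophages depend on, read 15.4 and 11.3 at day 1 and 9.51 and 18.0 at day 3. Lyz2 read 81.1 and 51.6, then 32.3 and 38.6, and was not called (-0.86). Tyrobp was at 0 in both day 3 libraries, and C1qa was at 0 in 1 library of each day. The part of these cells in the interferon result was not tested.

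**Figure D2:**
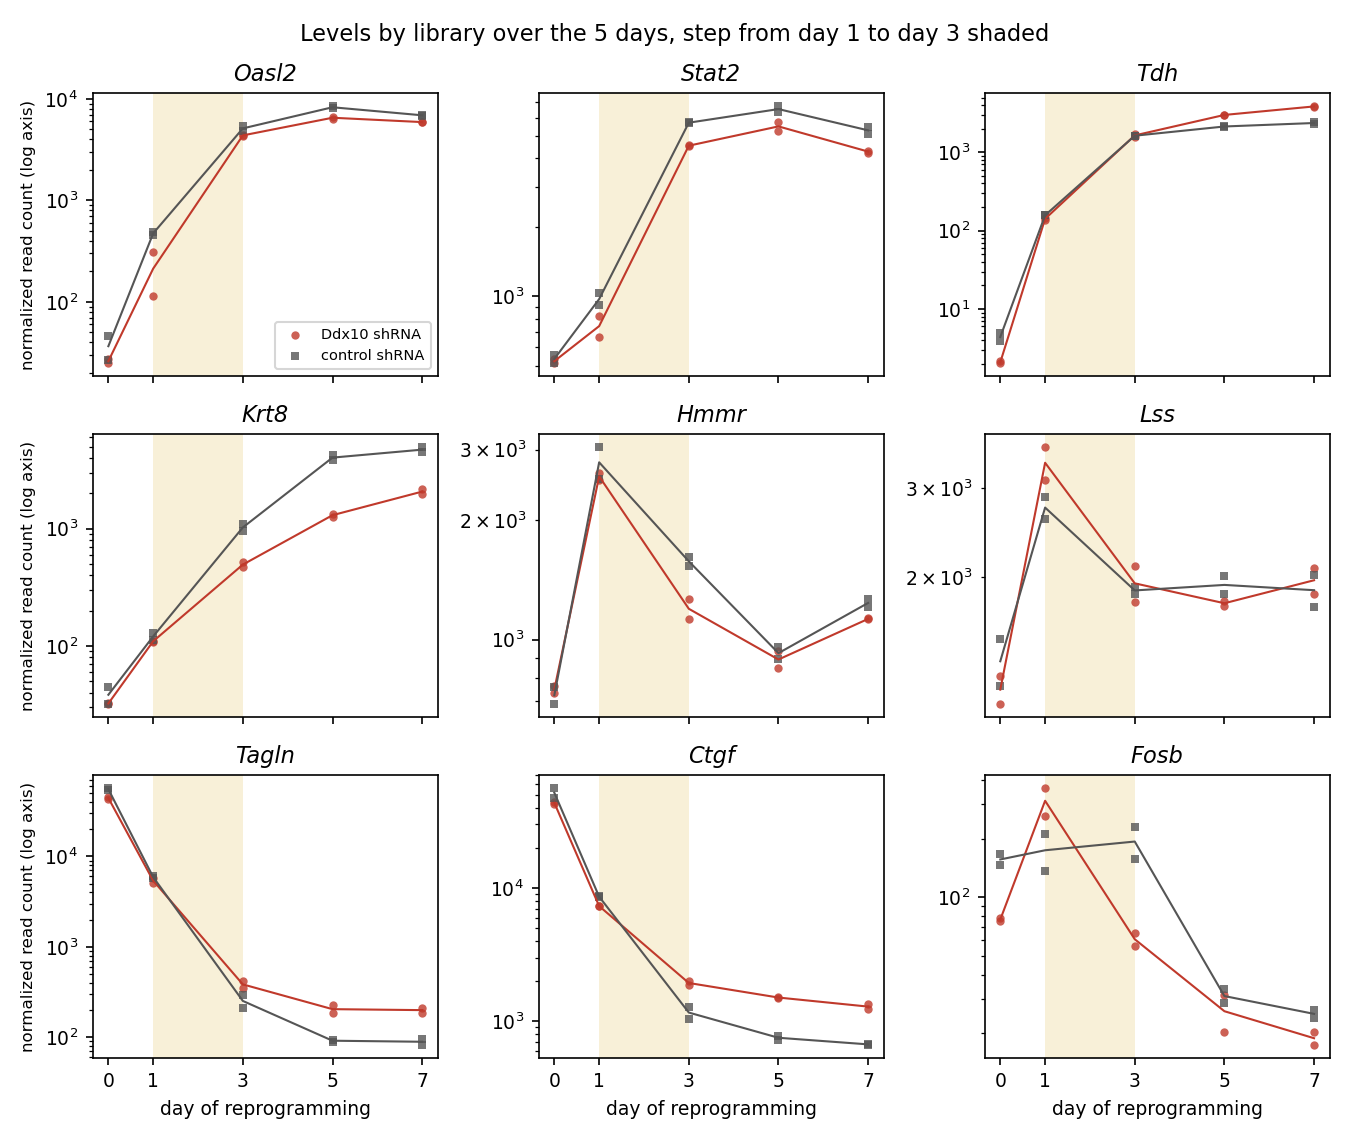
Normalized read counts (log axis) of 9 genes by day of reprogramming, with points for single libraries, lines through the group means, red for the Ddx10 shRNA arm and grey for the control arm, and the step from day 1 to day 3 shaded. In the knockdown arm Oasl2, Stat2, Tdh and Krt8 climb across the shaded step, Tagln and Ctgf drop, and Hmmr and Lss drop after a day 1 level above day 0.

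Epithelial genes rose as a group. Of 40 measured genes for junctions and keratins, 21 rose and 1 fell, with a median of 1.12. Cdh1, which encodes E-cadherin of adherens junctions, read 319 and 334 at day 1 and 1273 and 1389 at day 3, a rise of 2.02 (SE 0.26, limma adjusted p = 5.02e-05). Epcam, an epithelial adhesion molecule, went from 27.5 and 25.9 to 362 and 358, a rise of 3.71 (SE 0.38, limma adjusted p = 4.62e-06). Krt8, a keratin of simple epithelia, went from 111 and 109 to 519 and 470, a rise of 2.16 (SE 0.13, limma adjusted p = 1.04e-08). For all 3 genes the replicates lay close together and the days were apart.

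Further members ranged from junction proteins to regulators. Spint1, an inhibitor of membrane serine proteases, rose by 3.61, from 10.2 and 5.24 to 105 and 97.4. Elf3, an epithelial ETS factor, rose by 3.16, from 13.9 and 11.4 to 121 and 121. Dsg2, a desmosomal cadherin, rose by 2.73, from 14.3 and 20.9 to 110 and 131. These were low at day 1 and moderate at day 3. Cldn4, a claudin of tight junctions, moved the other way, from 54.1 and 32.6 to 22.8 and 18.9, a fall of 0.98 (limma adjusted p = 0.0316); that call was lost without day 1 replicate 1, day 3 replicate 1 or day 3 replicate 2, when 0 members fell.

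Pluripotency genes rose in part. Of 44 measured, 17 rose and 0 fell, with a median of 0.53. That is 38.6% called, beside 32.3% of all genes, and 25 of the 44 had a mean below 50 over the 4 libraries. Among the 17 were Pou5f1, whose reads cannot be told apart from viral copies, and Epcam, which also counts in the epithelial list. Tet2 and Jarid2, also among the 17, count again in the DNA methylation list and the Polycomb list. Tdh, the threonine dehydrogenase used by mouse embryonic stem cells, read 145 and 138 at day 1 and 1698 and 1585 at day 3, a rise of 3.53 (SE 0.10, limma adjusted p = 5.15e-12). Tfcp2l1, a naive-state transcription factor, rose by 2.57, from 139 and 247 to 1234 and 991. Alpl, the alkaline phosphatase used to stain colonies, rose by 2.92, from 34.6 and 31.7 to 281 and 236. Zfp42, known as Rex1, rose by 3.05, from 7.33 and 10.1 to 77.1 and 81.0.

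The core factors that close the network were near the bottom of the scale. Nanog read 3.95 and 4.29 at day 1 and 4.11 and 0.971 at day 3 and was not called (-0.69, limma adjusted p = 0.419). Esrrb, an orphan nuclear receptor of naive cells, changed by 0.57 (limma adjusted p = 0.546). Lin28a, an RNA-binding protein of embryonic cells, was listed at 0 in both day 1 libraries and was not called, and Dppa5a was listed at 0 in all 4 libraries.

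Several of the largest rises belonged to none of these programs. Trh, which encodes the precursor of thyrotropin-releasing hormone, read 12.9 and 10.1 at day 1 and 2060 and 1846 at day 3, a rise of 7.30 (SE 0.52, limma adjusted p = 2.23e-07). Dmgdh, a mitochondrial enzyme of choline breakdown, rose by 5.66, from 2.65 and 1.09 to 142 and 135. Scn10a, a voltage-gated sodium channel subunit, rose by 5.17, from 1.82 and 4.52 to 152 and 131. All 3 read at most 12.9 at day 1, the day on which more genes were at 0. Dpp6, an accessory subunit of potassium channels, rose by 4.95, from 6.12 and 5.04 to 199 and 204. Spock2, a secreted proteoglycan, rose by 4.68 (SE 0.18, limma adjusted p = 6.87e-11), from 28 in both day 1 libraries to 759 and 728.

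Genes of the smooth muscle contractile program fell furthest. Of 28 measured, 25 fell and 2 rose, with a median of -0.98. Tagln, the actin-binding protein transgelin, read 5699 and 5067 at day 1 and 418 and 349 at day 3, a change of -3.81 (SE 0.14, limma adjusted p = 3.92e-11). Acta2, smooth muscle alpha-actin, went from 14282 and 12422 to 1153 and 1202, a change of -3.50 (SE 0.14, limma adjusted p = 1.43e-10). Cnn1, calponin, went from 470 and 451 to 35.3 and 36.9, a change of -3.64 (SE 0.68, limma adjusted p = 0.00116). The days were far apart for all 3 genes, but replicates that do not overlap were a condition for naming the largest falls. All 3 had been higher still at day 0, when Tagln read 43159 and 45323. Myl9, a myosin regulatory light chain, changed by -3.01, from 1291 and 895 to 146 and 120. Lmod1, leiomodin, changed by -3.06, from 182 and 152 to 14.3 and 25.3.

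Matrix genes moved in both directions. Of 34 collagen and crosslinking genes, 18 fell and 9 rose, with a median of -0.42. Lox, the lysyl oxidase that crosslinks collagen and elastin, read 24937 and 25125 at day 1 and 4076 and 4073 at day 3, a change of -2.62 (SE 0.08, limma adjusted p = 8.89e-12). Col12a1, a collagen bound to fibril surfaces, changed by -2.53, from 11694 and 11350 to 1886 and 2112. Col1a1 fell by 0.83, from 64711 and 61517 to 33912 and 36917. Against these, Col18a1, a basement membrane collagen and the source of endostatin, rose from 1319 and 1132 to 6305 and 6791, by 2.42 (SE 0.12, limma adjusted p = 6.93e-10). Col6a3, of microfibrillar collagen VI, rose by 1.38, from 4787 and 4067 to 10452 and 12704, and Col6a1 and Col6a2 rose by 0.91 and 0.98.

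Further single genes among the largest falls included Fbln5, Fmod and Ptx3. Fbln5, fibulin-5 of elastic fibres, went from 11917 and 11547 to 1885 and 1730, a change of -2.70 (SE 0.08, limma adjusted p = 5.57e-12). Fmod, the collagen-binding proteoglycan fibromodulin, changed by -3.92, from 319 and 267 to 24.8 and 13.5. Ptx3, a soluble pattern receptor, changed by -2.55, from 428 and 432 to 65.9 and 79.6. These were among the 90 genes that fell past 2 on the log2 scale. Of 25 matrix protease and plasminogen genes, 9 rose and 6 fell (median -0.03). Mmp12, macrophage elastase, rose by 3.86, from 9.74 and 7.75 to 135 and 145, and Mmp10, stromelysin-2, by 1.93, from 98.1 and 69.7 to 297 and 340.

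TGF-beta and mesenchymal lists held more falls than rises. Of 26 TGF-beta ligands, receptors and targets, 11 fell and 3 rose (median -0.23); without day 3 replicate 2, 7 fell. Thbs1, thrombospondin-1, an activator of latent TGF-beta, changed by -2.19, from 41541 and 40049 to 8674 and 9160. Ctgf, a classic target of TGF-beta and YAP, changed by -1.92 (SE 0.09, limma adjusted p = 7.28e-10), from 7287 and 7336 to 1878 and 1993. Inhba, the activin A subunit, changed by -1.85, from 1170 and 1085 to 307 and 315. Of 37 EMT regulators and mesenchymal markers, 18 fell and 5 rose (median -0.37), and 11 fell without day 1 replicate 1 or without day 3 replicate 1. Snai1, a repressor of Cdh1, fell by 0.53, from 209 and 244 to 164 and 149. Snai2 (-0.37), Zeb1 (-0.16), Zeb2 (-0.17) and Twist1 (-0.07), the other main repressors of the epithelial state, were not called. Lum, the proteoglycan lumican, rose by 1.77, from 749 and 817 to 2623 and 2736, and Nt5e, the surface nucleotidase CD73, by 1.60, from 2328 and 2856 to 7903 and 7738. Of 25 BMP pathway genes, 7 fell and 5 rose (median -0.13); 2 rose without day 1 replicate 2 or without day 3 replicate 1, and 4 fell without day 1 replicate 1 or without day 3 replicate 2. Bmp2, a ligand, rose by 1.85, from 129 and 112 to 421 and 451.

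Cell cycle genes fell together and by smaller amounts. Of 42 genes of G2 and mitosis, 39 fell and 0 rose, with a median of -0.71, and of 47 genes of S phase, 39 fell and 0 rose, with a median of -0.43. Hmmr, a spindle-associated protein, read 2514 and 2628 at day 1 and 1127 and 1263 at day 3, a change of -1.11 (SE 0.09, limma adjusted p = 2.52e-07). Nek2, a centrosomal kinase, went from 993 and 991 to 476 and 517, a fall of 1.00 (SE 0.08, limma adjusted p = 1.68e-07). Anln, the contractile ring protein anillin, went from 6413 and 6813 to 3358 and 3397, a change of -0.97 (SE 0.08, limma adjusted p = 3.67e-07). Each was lower in both day 3 libraries than in both day 1 libraries, and Hmmr and Anln stayed above their day 0 values, which for Hmmr were 763 and 735. Nek2 at day 3 overlapped its day 0 values of 457 and 483. Plk1, the mitotic kinase, fell by 0.70, from 2028 and 1917 to 1184 and 1242, and Ccnb1, cyclin B1, by 0.81, from 2587 and 2820 to 1573 and 1517.

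Among S phase genes, Gins2, a subunit of the replicative helicase, fell by 1.05 (SE 0.17, limma adjusted p = 0.000286), from 1427 and 1492 to 668 and 741. Rrm1 and Rrm2, the subunits of ribonucleotide reductase, fell by 0.81 and 0.79. Rrm1 read 7279 and 7828 at day 1 and 4267 and 4315 at day 3. The S phase count depended on single libraries more than the mitotic one: 23 genes fell without day 1 replicate 2 and 24 without day 3 replicate 1, whereas the mitotic count stayed between 32 and 39 without any 1 of the 4 libraries. Cenpf (-1.04), Ube2c (-0.43) and Cdc25b (-0.06), all with roles in mitosis, were the 3 mitotic genes not called.

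Promoters of mitotic genes are shown because these genes moved together and many share short elements, the CHR (TTTGAA, or TTCAAA on the other strand) and the CCAAT box (CCAAT, or ATTGG). Hmmr is at chr11:40733408-40733464 on the minus strand, with its CHR starting 8 bases after the gene start, and Nek2 is at chr1:191821412-191821486 on the plus strand, with a CCAAT box 26 bases before the start. Capitals mark the 1 match named for each gene, and build and source are as above. In lower case the Hmmr window also holds an attgg 20 bases before the start and the Nek2 window a ccaat 7 bases after it.
Hmmr: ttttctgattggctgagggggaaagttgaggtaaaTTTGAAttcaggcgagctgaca
Nek2: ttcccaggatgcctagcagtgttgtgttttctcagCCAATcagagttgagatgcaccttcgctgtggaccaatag
The CHR was found in 73.7% of 38 promoters of the mitotic list, in 12.3% of those of the table's genes and in 17.9% of all promoters. The CCAAT box was found in 81.6% of the mitotic promoters and 37.4% of all. It was also in 79.2% of the promoters of the cholesterol synthesis list. For the ER and integrated stress response genes, of which 11 fell and 6 rose, the share was 75.7%. Among all fallen and all risen genes, the CHR was in 15.3% and 11.5% of promoters and the CCAAT box in 40.0% and 35.5%. In the S phase list, 30.2% of 43 promoters held the E2F motif TTTNGCGC or its reverse GCGCNAAA, against 2.19% for the table's genes and 1.38% for all promoters.

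Ribosome assembly, the process in which DDX10 acts, showed small falls. Of 47 genes of small subunit assembly, 27 fell and 0 rose (median -0.29), and of 42 of large subunit assembly, 21 fell and 1 rose (median -0.30). The small subunit list includes Ddx10, the target of the shRNA, whose change of 0.20 was not called. The control arm had similar falls, with 23 small subunit genes lower and 0 higher (median -0.25). Its large subunit genes numbered 18 lower and 1 higher (median -0.23). A difference between the arms was called for 0 genes of either list. Nop58, a core protein of box C/D particles that guide rRNA methylation, read 3308 and 3253 at day 1 and 2186 and 2239 at day 3, a change of -0.57 (SE 0.08, limma adjusted p = 4.49e-05). Nop56, its partner, fell by 0.53, from 3840 and 3435 to 2686 and 2370. Wdr12, of the PeBoW complex for the large subunit, fell by 0.84, from 1187 and 1046 to 626 and 618. The 1 that rose was Ddx24, another DEAD-box helicase, which went from 2831 and 2928 to 4919 and 4902 (0.77, SE 0.07, limma adjusted p = 3.67e-07). Among 20 genes of RNA polymerase I and the nucleolus, 8 fell and 2 rose (median -0.16), and leaving out any 1 of the 4 libraries left 1 risen gene. Baz2a, a subunit of the rDNA silencing complex NoRC, rose by 0.52, from 1833 and 1656 to 2464 and 2547. These counts lean on single libraries: small subunit genes that fell numbered 14 without day 1 replicate 2 and 16 without day 3 replicate 1, large subunit genes 13 without day 3 replicate 2, and polymerase I genes 5 without day 3 replicate 1.

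Cholesterol synthesis fell as a group, with 22 of 28 genes lower, 0 higher and a median of -0.48. Acat2, a thiolase at the head of the pathway, read 3393 and 3087 at day 1 and 1705 and 1773 at day 3, a change of -0.90 (SE 0.08, limma adjusted p = 6.34e-07). Lss, lanosterol synthase, went from 3621 and 3123 to 1786 and 2105, a change of -0.79 (SE 0.12, limma adjusted p = 9.49e-05). Idi1, the isopentenyl diphosphate isomerase, fell by 0.74, from 6298 and 5862 to 3593 and 3688. All 3 stayed above their day 0 values. Ebp, Sc5d and Dhcr7, which act late in the pathway, and the regulators Srebf1 and Srebf2 were among the genes not called.

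Immediate early genes fell more often than they rose, 15 against 3 of 28 (median -0.44). Fosb, a partner in AP-1, read 365 and 262 at day 1 and 65.8 and 55.9 at day 3, a change of -2.33 (SE 0.27, limma adjusted p = 6.89e-06). Egr2, a zinc finger factor, changed by -1.61, from 130 and 161 to 52.2 and 41.7. Dusp1, a MAP kinase phosphatase, changed by -1.18, from 2251 and 2272 to 1031 and 962. For Fosb the day 1 libraries stood above day 0, where it read 75.4 and 78.2, and the day 3 libraries below it.

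The remaining lists held changes in both directions. In the list of ER and integrated stress response genes, 11 of 37 fell and 6 rose (median -0.09). Phgdh, which opens serine synthesis, fell from 3498 and 3365 to 1272 and 1288 (-1.42, SE 0.09, limma adjusted p = 1e-08), and Ddit4, an inhibitor of mTORC1, rose by 1.03, from 850 and 797 to 1753 and 1618. Glycolysis genes split into 10 that fell and 6 that rose of 29 (median -0.16). Slc16a3, the lactate exporter MCT4, changed by -3.50, from 144 and 109 to 7.81 and 13.2, and Aldoc, the brain aldolase, rose by 1.68, from 54.3 and 50 to 182 and 157. Of 41 nuclear genes of oxidative phosphorylation, 8 fell and 0 rose (median -0.16), and these 19.5% of the list stand beside 14.3% of all genes; 3 fell without day 1 replicate 1 or day 3 replicate 2 and 2 without day 1 replicate 2.

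Stress defence and growth arrest genes included clear rises. Aldh3a1, an aldehyde dehydrogenase, went from 2551 and 2431 to 11146 and 10091, a rise of 2.09 (SE 0.14, limma adjusted p = 4.18e-08), in a list of 24 NRF2 and heme genes with 8 risen and 5 fallen (median 0.11; 3 fell without day 1 replicate 1 and 2 without day 3 replicate 2). Slc7a11, the cystine transporter, rose by 1.00, from 567 and 555 to 1120 and 1118. Of 27 p53 targets and CDK inhibitors, 8 rose and 5 fell (median 0.01; 2 fell without day 1 replicate 2 or day 3 replicate 1, and 3 without day 3 replicate 2). Cdkn1c, the inhibitor p57, rose by 1.13, from 391 and 307 to 768 and 754. Cdkn2a, the locus of p16 and p19ARF, rose by 0.95, from 710 and 715 to 1409 and 1357, above all 4 values of days 0 and 1. Of 27 secreted senescence factors, 7 rose and 8 fell (median -0.06; 5 fell without day 3 replicate 2). Ccl8, a monocyte chemokine, rose by 4.20, from 13.9 and 21.6 to 316 and 359, and Igfbp7, a secreted binding protein, changed by -2.37, from 3977 and 3518 to 748 and 703.

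Chromatin and patterning lists had medians between -0.02 and 0.23. Of 18 DNA methylation genes, 6 rose and 2 fell (median 0.23; 3 rose without day 1 replicate 2, and 1 fell without day 1 replicate 2, day 3 replicate 1 or day 3 replicate 2). Tet2, a methylcytosine dioxygenase, rose by 0.87, from 574 and 669 to 1182 and 1083. Of 36 Polycomb and H3K9 methylation genes, 5 rose and 4 fell (median -0.02; 3 rose without day 1 replicate 2), and 25% of the list was called beside 32.3% of all genes. Phf19, a PRC2 accessory protein, fell by 1.19, from 367 and 395 to 175 and 157, and Jarid2, another one, rose by 0.68, from 491 and 516 to 811 and 803. Of 32 Hox genes, 9 rose and 1 fell (median 0.21; 5 rose and 2 fell without day 3 replicate 1, and 0 fell without day 1 replicate 1). Of the Hox list 31.2% was called, beside 32.3% of all genes. Hoxc4 rose by 0.74, from 386 and 337 to 593 and 616. Of 41 Wnt and planar polarity genes, 12 rose and 10 fell (median 0.03; 6 fell without day 3 replicate 1). Wnt7b, a ligand, rose by 2.33, from 18.2 and 25.6 to 120 and 105, and Nkd1, a feedback inhibitor, by 2.17, from 33.7 and 36.1 to 128 and 202.

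Markers of further cell types gave no one direction. Of 11 neural markers 4 rose and 2 fell. Nefl, the light neurofilament chain, rose from 2224 and 2226 to 9861 and 8996, by 2.08 (SE 0.10, limma adjusted p = 6.93e-10), whereas Tubb3, neuronal tubulin, fell from 2788 and 2442 to 1054 and 1038, by 1.32 (SE 0.10, limma adjusted p = 1.28e-07). Of 9 endothelial markers 2 rose, of 8 markers of primitive endoderm and trophoblast 2 rose (1 without any 1 of the 4 libraries), of 6 skeletal muscle markers 1 rose and 2 fell, and of 4 adipocyte markers 1 fell. The share called was 22.2% for the endothelial and 25% for the endoderm and trophoblast markers, beside 32.3% of all genes. It was 25% for the adipocyte, 50% for the skeletal muscle and 54.5% for the neural markers. The adipocyte fall, in Cd36, was lost without day 1 replicate 1, day 3 replicate 1 or day 3 replicate 2, and with a pseudocount of 0.1.

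The same step in the control arm, which shares no library with the knockdown step, moved most of these genes the same way. There 5844 genes were called (37.1%), 3070 higher (19.5%) and 2774 lower (17.6%). Risen genes called in both arms numbered 2119, which is 74.6% of the knockdown's and 69.0% of the control's, and fallen genes 1700, which is 75.4% and 61.3%. Among genes called in the knockdown arm, 96.9% had the same sign in the control, against 78.5% of all genes. Across the 15757 genes, which are not independent and share the depth and scaling of their libraries, Pearson's r between the steps was 0.801 and Spearman's rho 0.734. Ctsd, Dguok, Serinc3, Gna14, Jam2 and Srpx, chosen after their values were seen, were the 6 genes called in opposite directions.

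**Figure D3:**
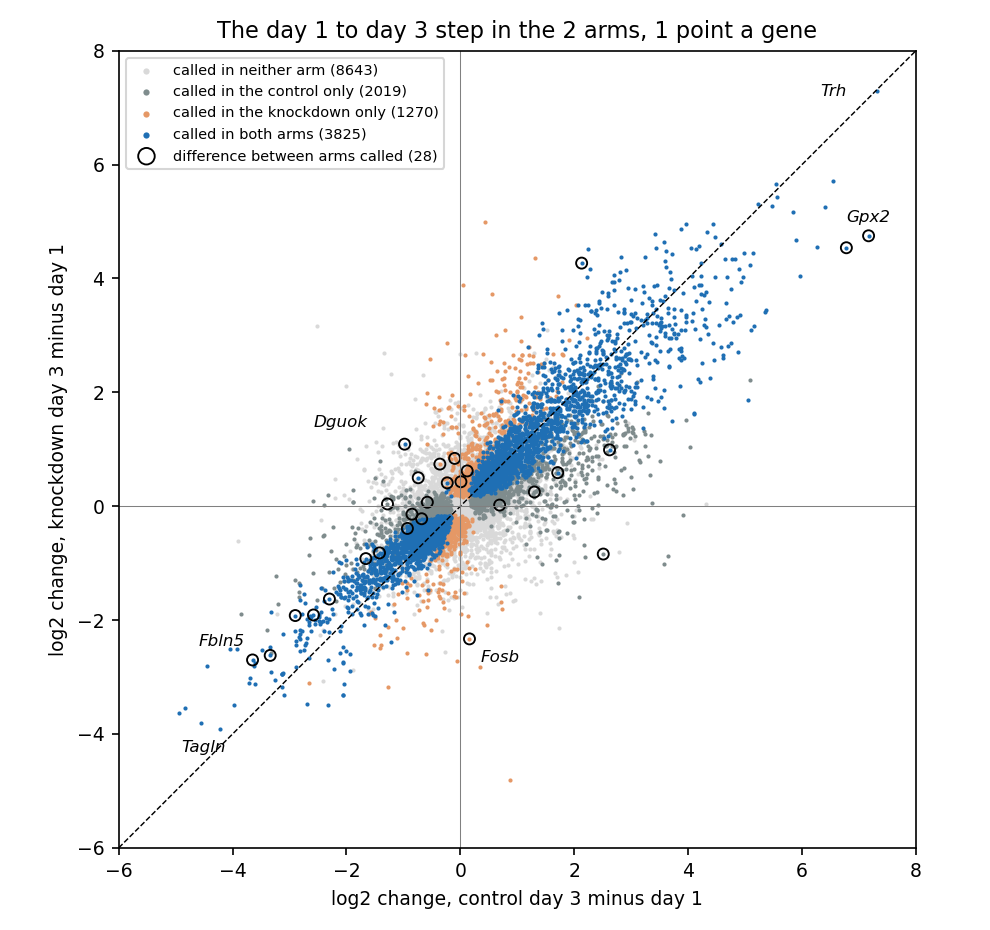
Log2 change from day 1 to day 3 in the control arm (horizontal) against the Ddx10 shRNA arm (vertical), 1 point a gene, coloured by the arms in which limma called it, with the line of equal change dashed. Of the 3825 genes called in both arms, 3819 changed in the same direction, with Trh near the upper end and Tagln near the lower end, and circles mark the 28 genes whose steps differed between the arms.

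List medians in the arms stood side by side as follows. The interferon median was 2.77 in the knockdown arm and 2.25 in the control, where 44 of 45 genes also rose. The list's summed level in the control was 34129 and 34484 at day 1 and 118858 and 123256 at day 3. On both days these were above the knockdown libraries, at 21865 and 28773, then 103464 and 100744. The epithelial median was 1.12 against 1.62, and the smooth muscle median was -0.98 against -1.34. The mitotic median was -0.71 against -0.50, with 39 and 30 of 42 genes lower and 1 higher in the control. A difference between the arms was called for 0 genes of each of these 4 lists. No difference in Krt8 (-0.92, limma adjusted p = 0.0935), Tagln (0.75, limma adjusted p = 0.192) or Oasl2 (1.10, limma adjusted p = 0.442) passed the threshold.

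The direct test of the difference between the arms called 28 genes, 0.178% of those tested, 20 with a higher (0.127%) and 8 with a lower (0.0508%) step in the knockdown arm, and 1624 had an unadjusted p below 0.05. This count depended on the libraries and the fit. Among fits that leave out 1 of the 8 libraries it was 136 without control day 1 replicate 1 and 226 without control day 1 replicate 2, whose group had the widest spread between replicates (median 0.252). It was 4 without knockdown day 1 replicate 1, 9 without control day 3 replicate 1, 4 without control day 3 replicate 2, 4 without knockdown day 3 replicate 1 and 3 without knockdown day 3 replicate 2. It was 0 in a fit of the 8 libraries alone and 0 with library weights, where 1157 and 1038 genes had an unadjusted p below 0.05.

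Fbln5 was the one named gene whose difference was called without any 1 of the 8 libraries. It read 13391 and 13521 at control day 1 and 1100 and 1037 at control day 3, a change of -3.65 there against -2.70 in the knockdown arm. The difference was 0.95 (SE 0.11, limma adjusted p = 0.0053), with adjusted p from 0.00343 to 0.0336 when libraries were left out. The knockdown day 3 libraries, at 1885 and 1730, were above both control day 3 libraries. In the fit of the 8 libraries alone its limma adjusted p was 0.125, and with library weights it was 0.0568.

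Ctgf, Lox and Adamts5 also had a called difference, 1 each of 26 TGF-beta, 34 collagen and crosslinking and 25 matrix protease genes. Ctgf read 8524 and 8674 at control day 1 and 1284 and 1038 at control day 3 (-2.90), and its difference was 0.98 (SE 0.13, limma adjusted p = 0.0149). That call was lost without knockdown day 1 replicate 1 (0.0502) and without knockdown day 3 replicate 2 (0.0573). Lox differed by 0.73 and Adamts5, an aggrecan-cleaving protease, by 0.67 (limma adjusted p = 0.0295 for each). Adamts5 went from 2506 and 2671 to 667 and 706 in the knockdown arm and from 2193 and 2252 to 375 and 367 in the control. Lox and Adamts5 lost the call in 5 of the 8 fits that leave out 1 library, with adjusted p up to 0.121 for Lox and 0.103 for Adamts5; the call was kept without either control day 1 library and without knockdown day 1 replicate 2. Under quantile scaling the call of Lox was lost as well (limma adjusted p = 0.0568).

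Further called differences ran in both directions. Fosb, which fell in the knockdown arm, read 212 and 137 at control day 1 and 158 and 229 at control day 3, where the days overlapped. Its difference was -2.49 (SE 0.38, limma adjusted p = 0.0295). Dguok, a mitochondrial kinase of purine deoxynucleosides, went from 115 and 113 to 280 and 212 in the knockdown arm and from 207 and 184 to 90.1 and 107 in the control. Its difference was 2.07 (limma adjusted p = 0.0295), and the days did not overlap in either arm. Klf2, a Krüppel-like factor of naive pluripotent cells, read 114 and 93.4, then 126 and 120, in the knockdown arm and 105 and 83.7, then 221 and 241, in the control, a difference of -1.05 (limma adjusted p = 0.0325). Tapbpl, a peptide editor for MHC class I, rose by 0.59 in the knockdown arm and by 1.71 in the control, a difference of -1.12 (limma adjusted p = 0.0295). When libraries were left out 1 at a time, the adjusted p ranged from 0.0054 to 0.103 for Fosb, from 0.0154 to 0.149 for Dguok, from 0.0076 to 0.171 for Klf2 and from 0.0147 to 0.121 for Tapbpl. The upper values came without control day 3 replicate 2 for Fosb and Klf2 and without knockdown day 3 replicate 1 for Dguok and Tapbpl. All 4 genes lost the call without knockdown day 1 replicate 1, control day 3 replicate 2 or either knockdown day 3 library. Without control day 3 replicate 1 the adjusted p was 0.0696 for Dguok and 0.0606 for Klf2 and Tapbpl, and without knockdown day 1 replicate 2 it was 0.0535 for Dguok.

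**Figure D4:**
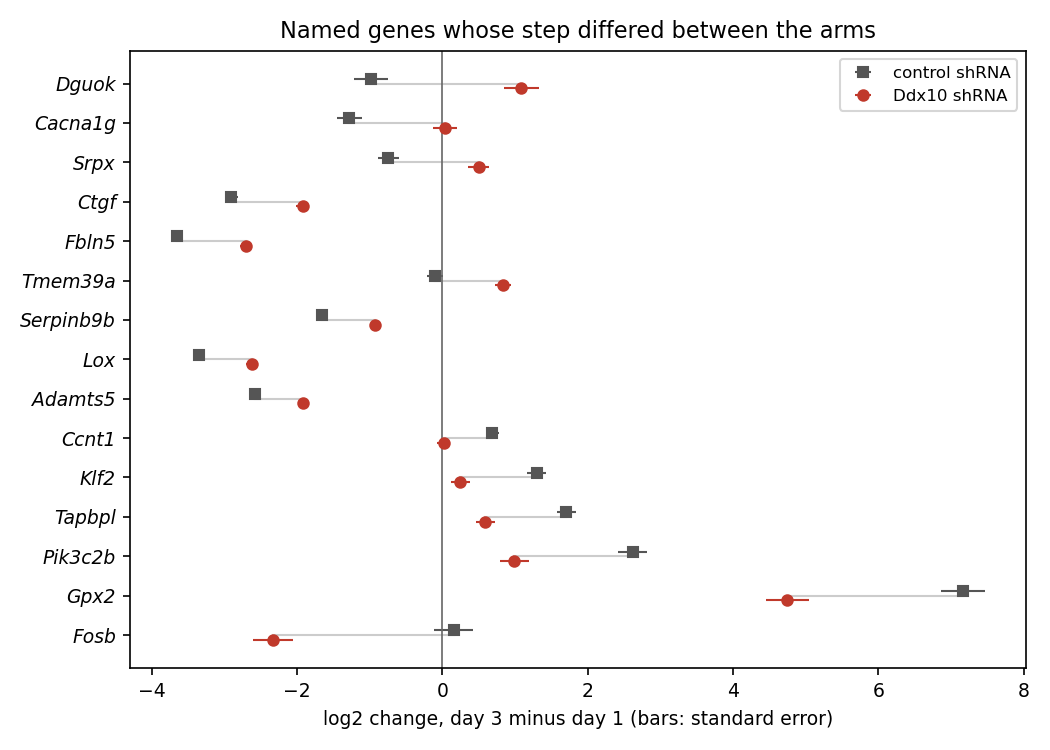
Log2 change from day 1 to day 3 in the control arm (grey squares) and the Ddx10 shRNA arm (red circles) for the 15 named genes whose difference limma called, with bars for the standard error. Fbln5 and Ctgf lie left of 0 in both arms but less far left in the knockdown arm, Dguok and Srpx lie on opposite sides of 0, and Fosb is at -2.33 in the knockdown arm and 0.16 in the control.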

How the data were processed

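Per the labels, TRIzol RNA of 20 samples was made into messenger RNA libraries and read in paired ends on an Illumina HiSeq machine. The authors deposited signal, 1 normalized read count for each of 15757 genes and each library. The mm10 build, DESeq2 1.22.0, RSEM 1.2.22, STAR 2.5.2a and Trim Galore 0.4.4 appear, without their roles, per the submitters' processing notes; the normalization, the annotation and whether counting used strand are not given in the sources used here. Scaling of this kind shows relative levels only.

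Values were transformed to log2(value + 1). Genes with at least 1 in at least 2 libraries were kept, which were all 15757, and fitted with limma 3.58.1 in R 4.3.3: 10 group means over 20 libraries (10 residual degrees of freedom), moderated by empirical Bayes (trend and robust on), and Benjamini-Hochberg adjustment over all genes with a threshold of 0.05. The median SE was 0.156 for a step and 0.22 for the difference between arms. On data simulated for the knockdown step over 15757 genes, limma called 75% of 100 genes given a log2 change of 1. It called 38% of 100 given 0.5, with 5 false calls. For the difference the shares were 56% and 15%, with 2 false calls. Only these genes were changed in the simulated step, whereas the real knockdown step called 5095. The Benjamini-Hochberg cutoff depends on how many genes change, so the simulated shares for the step cannot be carried over to the real step. The changed genes were drawn only from those above a minimum level at knockdown day 1, and each gene had the same spread in every group. In the real data control day 1 had the widest spread between replicates (median 0.252). The shares for the difference therefore cannot be carried over either.

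The step, the gene lists and the tests were chosen with earlier results of these data known. Named genes are Ddx10, the factors, the 15 genes that rose most and the 15 that fell most (called, mean of 50 or more, replicates of the days apart, proper symbol), the 4 largest called changes of each list and the 8 largest called differences between arms on each side with a mean of at least 50 over the 8 libraries, of which 6 were lower in the knockdown arm; some of them are not reported here, and genes beyond the rule are named as list members only. Of the identifiers, 15665 were found in the names table and 92 were not. RefSeq promoters (GRCm38.p6) were matched by symbol for 11344 of 15735 genes.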

Additional observations from a re-analysis of the deposited data

Results flagged for a closer look

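The genes below stand out because the limma test of the difference between the arms called their step from day 1 to day 3. Values are the knockdown change minus the control change on the log2 scale. Those higher in the knockdown arm were Dguok at 2.07, Cacna1g, a calcium channel subunit, at 1.32, Srpx at 1.24, Ctgf at 0.98, Fbln5 at 0.95, Tmem39a at 0.94, Serpinb9b, a granzyme B inhibitor family member, at 0.74, Lox at 0.73 and Adamts5 at 0.67. Those lower were Fosb at -2.49, Gpx2, an epithelial glutathione peroxidase, at -2.42, Pik3c2b at -1.62, Tapbpl at -1.12, Klf2 at -1.05 and Ccnt1, the cyclin of P-TEFb, at -0.66.

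Tmem39a read 439 and 480 at day 1 and 844 and 798 at day 3 in the knockdown arm, and 739 and 785, then 694 and 726, in the control. Gpx2 read 0.926 and 2.24, then 76.8 and 57.3, in the knockdown arm, and 1.03 and 0, then 194 and 215, in the control. Its difference rests on these low day 1 values and was -3.83 with a pseudocount of 0.1, where the call was lost (limma adjusted p = 0.2), and -1.81 with a pseudocount of 5. Pik3c2b, a class II phosphoinositide kinase, rose by 0.99 in the knockdown arm, from 81.7 and 66.9 to 137 and 160, and by 2.62 in the control; with replicate number as a block its difference was not called (limma adjusted p = 0.0525). Lox, Cacna1g and Ccnt1 lost their call under quantile scaling (limma adjusted p = 0.0568 for each), and Ccnt1 also lost the call with pseudocounts of 0.1 (0.0564) and 5 (0.0529). Of these genes, Fbln5 kept its call without any 1 of the 8 libraries, Ctgf in 6 of those 8 fits and Fosb in 4; the others kept it in 1 to 3.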

How the results depend on the processing

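The knockdown step called 5095 genes, and 3529 to 3941 when 1 library was left out. For that step, 132 of 149 named genes kept their side of the threshold under every alternative. In at least 1 alternative 14 called genes lost it, and 0 reversed. Many of these genes were named for their large called changes, so the counts do not describe the other genes. The control step called 5844 genes, 2918 in a fit of the compared libraries only, 3690 with library weights and 4213 to 5873 with 1 library left out. The difference between the arms called 28 genes, 14 after quantile scaling, 3 with no trend and no robust settings, 0 in a fit of the compared libraries only, 0 with library weights and 3 to 226 with 1 library left out. The cause was not tested. With replicate number as a block the counts were 4991 for the knockdown step and 19 for the difference; replicate-1 deviations of knockdown days 1 and 3 correlated at 0.01 across genes, so the shared numbers are no sign of pairing. With 2 libraries a group and no counts, depth per gene is unknown, and changes of low genes are understated by the pseudocount.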
